A study of Mus musculus with 8 samples.

Results

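The genes described are 26 genes of cholesterol synthesis, its control by sterols, and sterol transport and efflux, taken by gene symbol from the 53801 genes of the deposited table. All 26 were found, and 25 had enough reads to be tested. They were measured in stromal cells of mouse small intestine negative for the blood cell marker CD45 and the endothelial marker CD31. Flow cytometry had split these cells by YFP, in LTβR-YFP mice, into a YFP+ and a YFP- fraction. There were 4 total RNA libraries per fraction, with 23272858 to 28688906 counts in YFP- and 23404630 to 29829232 counts in YFP+. All 8 libraries come from the same reporter strain, and no source used here states the age or number of mice or how the reporter is driven. The question was how the YFP+ stroma differs in RNA from the YFP- stroma. The YFP sign in the title contradicts the description and genotype of all 8 samples. Groups follow the description and genotype, and if the titles held instead, each direction given here would be the opposite.

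Cholesterol is built from acetyl-CoA through mevalonate, isoprenoid units, squalene and lanosterol. The transcription factor SREBP-2 switches on most genes of this route. Its escort SCAP carries it out of the endoplasmic reticulum when membrane sterol is low, and the INSIG proteins hold it back when sterol is high, while cells with excess sterol export it through the ABC transporters ABCA1 and ABCG1. In the small intestine the epithelium absorbs dietary and biliary cholesterol, and the stromal cells beneath it, like other cells, make sterol or take it up from lipoproteins.

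Most of the 25 tested genes did not pass the test between fractions, and the 4 that passed were all lower in YFP+. These were Srebf2, which encodes SREBP-2, the synthesis enzymes Hmgcs1 and Cyp51, and Stard4, a carrier of sterol between membranes. The quasi-likelihood test of edgeR was used, with replicate number as a blocking term, so that each YFP+ library was compared with the YFP- library of the same number, and a gene passed at a Benjamini-Hochberg adjusted p under 0.05 over all 16354 tested genes. Over all those genes 7.85% passed as lower in YFP+ and 3.65% as higher, against 4 and 0 of the 25 cholesterol genes. At an unadjusted p under 0.05, 6 of the 25 were lower and 0 higher, beside 2172 and 1562 of the 16354 tested genes. With the block, DESeq2 called 3 lower and 0 higher (7.87% and 3.6% of all genes), and limma-voom also 3 and 0 (8.36% and 3.85%). The median log2 fold change of the 25 genes was -0.09, and that of all tested genes was 0.01. Without the block, edgeR called 0 of the 25 in either direction, against 3.34% of all genes called lower and 0.917% called higher, and DESeq2 without it also called 0 lower and 0 higher (4.92% and 1.77% of all genes). With the block, 2, 2, 1 and 2 cholesterol genes were lower when both libraries of replicate 1, 2, 3 or 4 were left out. In a bulk sample, fewer cells of a type and less RNA per cell cannot be told apart.

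The promoters of the called genes are shown because SREBP-2 acts at short sequences there, usually beside sites for the factors NF-Y and Sp1. RefSeq promoter windows (GRCm38.p6) were matched for 21 of the 26 genes, and Stard4 was not among them. Each sequence below is the part of the window before both the RefSeq and the GENCODE gene start, read 5′ to 3′ on the strand of the gene. Capitals mark matches on either strand to the sterol regulatory element TCACNCCAC or its first 8 letters TCACNCCA, to the CCAAT box that NF-Y binds (CCAAT), and to the GC box that Sp1 binds (GGGCGG).
Hmgcs1, chr13:119690101-119690350, plus strand: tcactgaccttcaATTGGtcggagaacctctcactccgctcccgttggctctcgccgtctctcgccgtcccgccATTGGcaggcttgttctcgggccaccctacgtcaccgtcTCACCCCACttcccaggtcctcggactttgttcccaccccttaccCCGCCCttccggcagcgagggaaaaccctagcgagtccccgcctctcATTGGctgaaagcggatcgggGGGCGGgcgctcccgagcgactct
Srebf2, chr15:82147019-82147180, plus strand: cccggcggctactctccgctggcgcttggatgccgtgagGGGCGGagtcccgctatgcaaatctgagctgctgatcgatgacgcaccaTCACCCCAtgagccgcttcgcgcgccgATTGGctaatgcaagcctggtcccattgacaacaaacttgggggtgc
Cyp51, chr5:4104747-4104947, minus strand: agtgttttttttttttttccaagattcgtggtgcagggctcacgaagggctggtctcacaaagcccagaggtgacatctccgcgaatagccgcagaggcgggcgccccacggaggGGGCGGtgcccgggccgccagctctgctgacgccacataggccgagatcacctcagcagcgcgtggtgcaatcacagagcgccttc

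Hmgcs1 held the full element, 3 CCAAT boxes and 2 GC boxes in the printed stretch. Srebf2 held the 8-letter form, which was added after the sequences were seen, with 1 CCAAT box and 1 GC box. Cyp51 held 1 GC box in the printed stretch, which leaves out 49 bases before the RefSeq start. A CCAAT box of Cyp51 was found within the 250 bases before a RefSeq start, outside the printed stretch. Over whole windows of 300 bases, with a gene counted when any of its windows held the motif, the full element was in 1 of the 21 cholesterol genes, or 4.76%, against 1.44% of 27025 genes in the RefSeq table and 1.41% of the 11581 of them that were tested here. The 8-letter form was in 3, Hmgcs1, Srebf2 and Msmo1 (14.3%, against 4.97% and 4.64%). A CCAAT box was in 18 (85.7%, against 41.1% and 42.5%) and a GC box in 20 (95.2%, against 38.2% and 65.4%). The E-box CACGTG, which the helix-loop-helix SREBP family can also bind, was in 6 (28.6%, against 8.09% and 11.2%). The 8-letter form lies within the full element. The CCAAT and GC boxes were thus also in most of the cholesterol genes that did not pass the test. A match is a description of the letters only.

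Per kilobase of exon, Abca1, Insig1, Srebf2 and Srebf1 stood above every enzyme in mean level. Levels are CPM, the counts scaled to a common library total with TMM factors, divided by the length of all annotated exons of the gene. Abca1, Insig1 and Srebf2 were the most abundant. In YFP- their means were 25.5 ± 3.64, 22.4 ± 1.14 and 21.1 ± 0.951 CPM per kb (SD, n = 4 each), and their library ranges overlapped. In YFP+ the mean of Srebf2 was 17.9 CPM per kb, and its range of 15.6 to 19.9 overlapped that of Insig1, 19.4 to 24.4, by little. Srebf1, which encodes SREBP-1, followed at 13.2 CPM per kb in YFP- and 12.6 in YFP+, below Srebf2 in every library. Hmgcs1 was the most abundant enzyme, at 10.5 ± 1.28 CPM per kb in YFP- and 8.31 ± 1.01 in YFP+. Sc5d, Insig2 and Scap came next, at 5.98 to 6.67 CPM per kb in YFP- and 6.28 to 6.44 in YFP+, with overlapping ranges. The remaining enzymes lay between 0.812 and 5.79 CPM per kb in YFP-, apart from Fdps, whose counts are uncertain because it shares exon sequence with other genes. Acat2 and Idi1, within this range, also share sequence with other genes (39.1% and 17.67% of 50-base stretches). The lowest of the range, Lss, was divided by 10.787 kb of annotated exon, which need not all be in 1 transcript. Abcg1, the partner of Abca1 in sterol export, was far lower than it, at 0.316 CPM per kb in YFP- and 0.463 in YFP+.

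**Figure D1:**
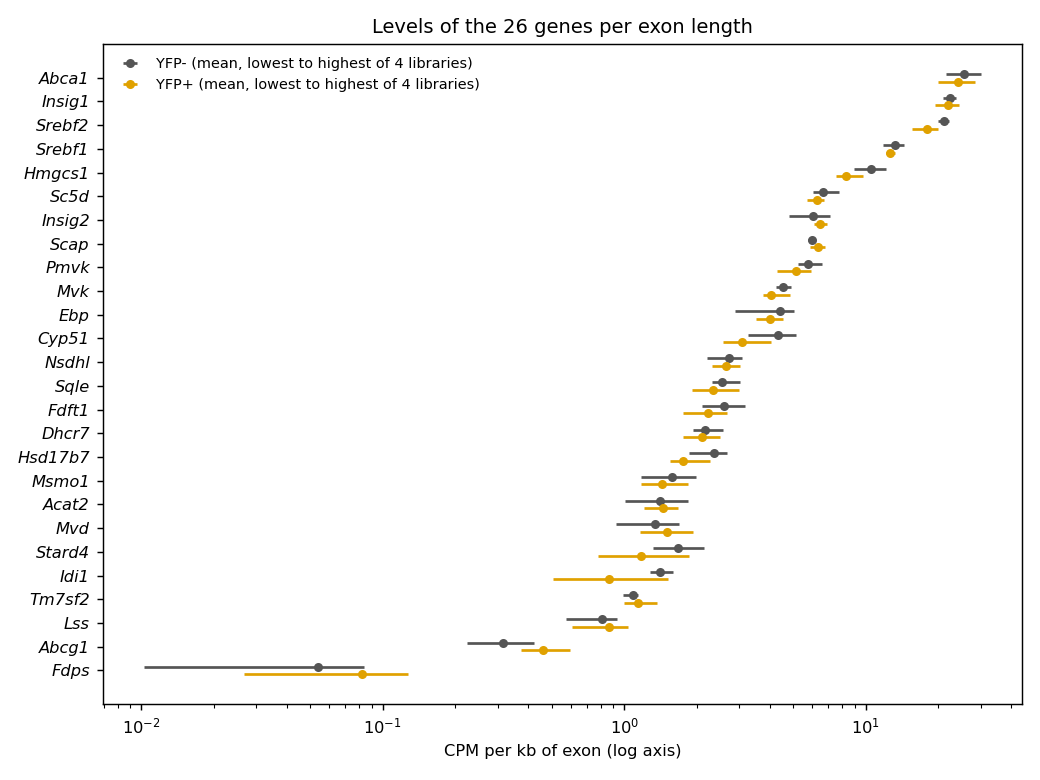
Mean level of the 26 genes in CPM per kb of exon on a log axis, for YFP- and YFP+, with bars from the lowest to the highest of 4 libraries. Abca1, Insig1 and Srebf2 are at the top in both fractions. Fdps, which shares exon sequence with other genes, is below all the others.

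Of the 7 enzymes that lead from acetyl-CoA to farnesyl diphosphate, 6 were tested and 1, Hmgcs1, fell in YFP+. Hmgcs1 (ENSMUSG00000093930) encodes HMG-CoA synthase, which makes the precursor of mevalonate, and lies on chromosome 13 from 119690379 to 119708260. Its level was 49.7, 47.4, 55.4 and 41.2 CPM in YFP- replicates 1 to 4 and 34.7, 44.8, 38.0 and 35.2 CPM in the YFP+ replicates in the same order. YFP+ was lower in all 4 pairs, by least in pair 2, and the groups overlapped. The means were 48.4 ± 5.87 and 38.2 ± 4.64 CPM (SD, n = 4 each). This is a log2 fold change of -0.34 (edgeR, SE 0.09, adjusted p = 0.0113). The call was lost without the block (edgeR adjusted p = 0.111), without both libraries of replicate 1 (edgeR adjusted p = 0.0934) and without those of replicate 3 (edgeR adjusted p = 0.139).

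Idi1, the isomerase that supplies the reactive isoprenoid unit, had the lowest estimate of the 25 genes but missed the threshold. Its YFP- levels were close together, at 5.57, 4.82, 4.49 and 4.86 CPM. Its YFP+ levels were spread, at 5.33, 1.77, 1.87 and 3.12 CPM, with replicate 1 near the YFP- level and the other 3 below every YFP- library. The log2 fold change was -0.83 (SE 0.28, edgeR adjusted p = 0.0537), and it passed without the libraries of replicate 1 (-1.11, edgeR adjusted p = 0.0381), with no filter on low counts (edgeR adjusted p = 0.0478) and with a filter of 1 CPM in 4 libraries (edgeR adjusted p = 0.0475). It did not pass without the libraries of replicate 2 (-0.63, edgeR adjusted p = 0.240), replicate 3 (-0.69, edgeR adjusted p = 0.242) or replicate 4 (-0.90, edgeR adjusted p = 0.108). Nor did it pass without the block (edgeR adjusted p = 0.317), or with the block in DESeq2 (adjusted p = 0.0507) and limma-voom (adjusted p = 0.0902). Of the 50-base stretches in Idi1 transcripts, 17.7% also occur in other annotated genes, so its counts are uncertain.

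The other early enzymes did not pass. Mvk, mevalonate kinase, averaged 12.1 ± 0.81 CPM in the YFP- libraries against 10.9 ± 1.38 CPM in the YFP+ ones (SD, n = 4 each), with a log2 fold change of -0.16 (SE 0.15). Pmvk, the kinase of the next step, had -0.18 (SE 0.16), and Mvd, which forms isopentenyl diphosphate, 0.17 (SE 0.31). Acat2, the cytosolic thiolase that joins acetyl-CoA units, had 0.07 (SE 0.27), and 39.1% of its 50-base stretches are shared, mainly with its neighbouring copy Acat3. The adjusted p of these 4 genes ran from 0.556 to 0.913 by edgeR. Fdps, which makes farnesyl diphosphate, had 8, 8, 1 and 5 counts in YFP- and 3, 13, 12 and 10 in YFP+. It was not tested, and its exons overlap Gm43738 on the same strand, with 26.2% of its 50-base stretches shared with other genes.

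Of the 11 enzymes from squalene to cholesterol, all were tested and 1, Cyp51, fell. Cyp51 (ENSMUSG00000001467) encodes the lanosterol demethylase and lies on chromosome 5 from 4081145 to 4104746. Its level was 19.6, 22.7, 20.3 and 14.3 CPM in YFP- and 11.4, 12.8, 17.9 and 12 CPM in YFP+. Pairs 1 and 2 differed most, pairs 3 and 4 less, and YFP- replicate 4 was below YFP+ replicate 3, so that the groups overlapped. The log2 fold change was -0.51 (SE 0.13, edgeR adjusted p = 0.0105), with means of 19.2 ± 3.51 and 13.5 ± 2.95 CPM (SD, n = 4 each). The call was lost without the block (edgeR adjusted p = 0.124) and without the libraries of replicate 1 (edgeR adjusted p = 0.0873) or replicate 2 (edgeR adjusted p = 0.104).

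Hsd17b7, the ketosteroid reductase that works with the demethylation complex, was lower in YFP+ in all 4 pairs without passing. It had 9.50, 13.6, 12.2 and 12.8 CPM in YFP- and 8.04, 11.6, 7.89 and 8.21 CPM in YFP+ (log2 fold change -0.44, SE 0.15, edgeR adjusted p = 0.0675). The 2 enzymes that act with it on the same methyl groups, Msmo1 and Nsdhl, had -0.13 (SE 0.17) and -0.04 (SE 0.18). Each was lower in YFP+ in 2 of 4 pairs.

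Sqle, squalene epoxidase and a rate-controlling enzyme of the route, did not pass. Its level was 13.2, 16.7, 13.6 and 12.8 CPM in YFP- and 12.2, 12.5, 16.6 and 10.6 CPM in YFP+ (log2 fold change -0.13, SE 0.14, edgeR adjusted p = 0.638). Pair 3 was higher in YFP+ and the other 3 pairs were lower. Fdft1, squalene synthase, had -0.23 (SE 0.17), with pair 4 lower by 0.84 on the log2 scale and pairs 1 and 2 higher. Its exons overlap those of Ctsb on the opposite strand. Lss, lanosterol synthase, had 0.09 (SE 0.16) and was higher by little in all 4 pairs. The late enzymes did not pass. Ebp, the sterol isomerase, had -0.11 (SE 0.17), Sc5d, the desaturase, -0.08 (SE 0.10), Dhcr7, the reductase of a last step, -0.04 (SE 0.14), and Tm7sf2, a sterol reductase, 0.06 (SE 0.22). The edgeR adjusted p of these 4 ran from 0.672 to 0.920.

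Summed over all 18 enzymes, the level was 209 to 231 CPM in YFP- and 181 to 206 CPM in YFP+. Without the called genes Hmgcs1 and Cyp51 the sum was 153 to 159 and 134 to 150 CPM. Each sum was lower in every YFP+ library than in every YFP- library, by a narrow margin. The lowest YFP- and highest YFP+ sums were 209 and 206 CPM, and 153 and 150 CPM without Hmgcs1 and Cyp51. Of single tested genes, 5.86% were lower in YFP+ without overlap, and no such share was computed for sums. Hmgcs1 and Cyp51 were left out for their calls in these same data, so the second sum is no separate test. A sum weights long and abundant genes most. The estimate was below 0 for 13 of the 17 tested enzymes, beside 7999 of the 16354 genes tested.

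**Figure D2:**
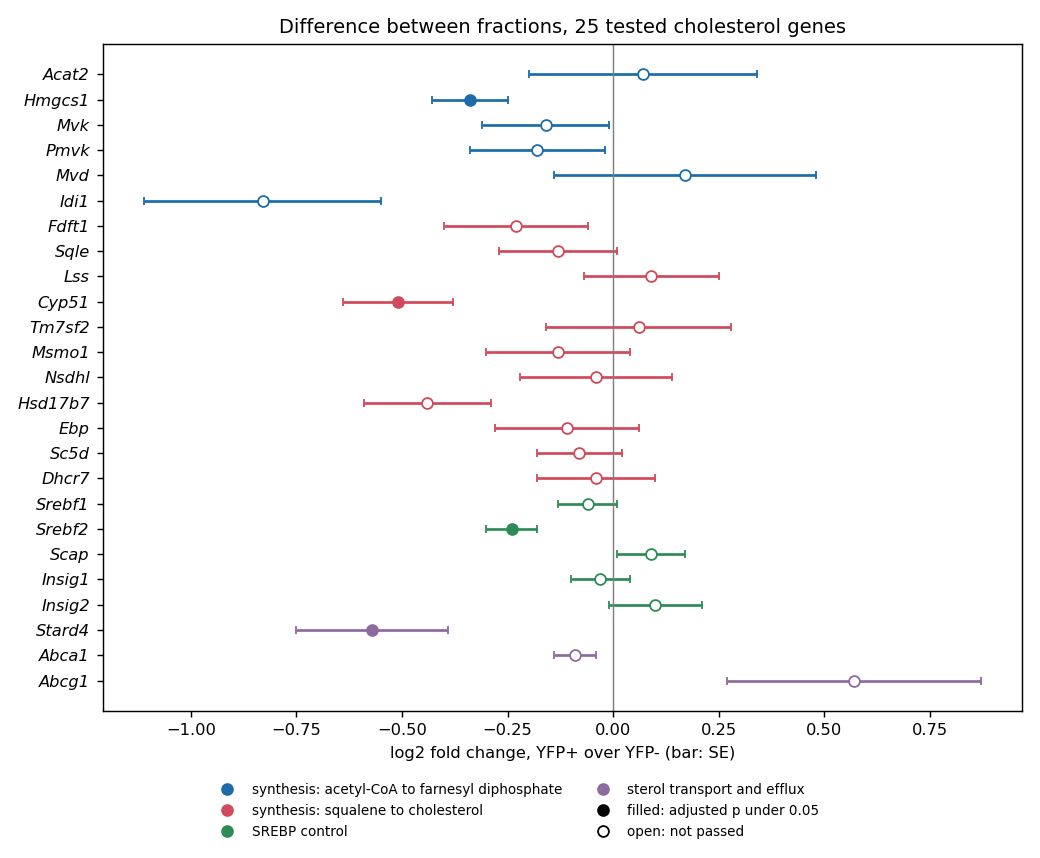
Log2 fold change of YFP+ over YFP- with its SE for the 25 tested genes, coloured by role and filled where the adjusted p was under 0.05. The filled points are Hmgcs1 (-0.34), Cyp51 (-0.51), Srebf2 (-0.24) and Stard4 (-0.57), and the widest bars belong to Mvd, Abcg1 and Idi1.

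Among the 5 genes of SREBP control, 1, Srebf2, fell in YFP+, and it had the smallest adjusted p of all 25. Srebf2 (ENSMUSG00000022463) lies on chromosome 15 from 82147181 to 82205379. It had 144, 155, 159 and 148 CPM in YFP- and 128, 143, 133 and 112 CPM in YFP+. Every YFP+ library was below every YFP- library, and this was the 1 gene of the 25 whose groups did not overlap, where 5.86% of all tested genes were lower without overlap and 3.78% higher. The change was small, with a ratio of 0.848 or -0.24 on the log2 scale (SE 0.06, edgeR adjusted p = 0.00932), and was largest in pair 4. The call was lost without the block (edgeR adjusted p = 0.167) and without the libraries of replicate 3 (edgeR adjusted p = 0.0855) or replicate 4 (edgeR adjusted p = 0.122).

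The other control genes had estimates within 0.10 of 0 on the log2 scale, with SEs of 0.07 to 0.11. Insig1, itself a target of SREBP, had 69.2, 64.7, 69.5 and 73.4 CPM in YFP- and 75.5, 59.9, 67.0 and 70.1 CPM in YFP+ (log2 fold change -0.03, SE 0.07, edgeR adjusted p = 0.870). The fractions were mixed, with replicate 1 highest in YFP+ and replicate 2 lowest in both. Insig2 had 0.10 (SE 0.11) and Scap 0.09 (SE 0.08). Srebf1 had 66.3 to 81.4 CPM in YFP- and 68.1 to 74.2 CPM in YFP+, a log2 fold change of -0.06 (SE 0.07). Whether the changes of Srebf2 and Srebf1 differ was not tested.

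Of the 3 genes of sterol transport and efflux, 1, Stard4, fell. Stard4 had 7.34, 12, 9.33 and 8.70 CPM in YFP- and 5.44, 10.3, 4.36 and 5.93 CPM in YFP+. All 4 pairs were lower in YFP+, pair 3 by most, and YFP+ replicate 2 lay within the YFP- range. The log2 fold change was -0.57 (SE 0.18, edgeR adjusted p = 0.0446), close to the threshold. The call was lost without the libraries of any replicate number (edgeR adjusted p = 0.0512 to 0.300), without the block (edgeR adjusted p = 0.336), and in DESeq2 and limma-voom with the block (adjusted p = 0.0544 and 0.0543).

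The 2 exporters did not pass. Abca1 was ordered by replicate number in the same way in both fractions, at 276, 222, 249 and 310 CPM in YFP- and 265, 207, 231 and 293 CPM in YFP+. Each pair was lower in YFP+ by 0.06 to 0.11 on the log2 scale (log2 fold change -0.09, SE 0.05, edgeR adjusted p = 0.329). Abcg1 was at 1.63 to 3.10 CPM in YFP- and 2.74 to 4.36 CPM in YFP+, higher in all 4 pairs, with a log2 fold change of 0.57 (edgeR, SE 0.30, adjusted p = 0.272). Counts of Abcg1 were 42 to 133 per library.

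**Figure D3:**
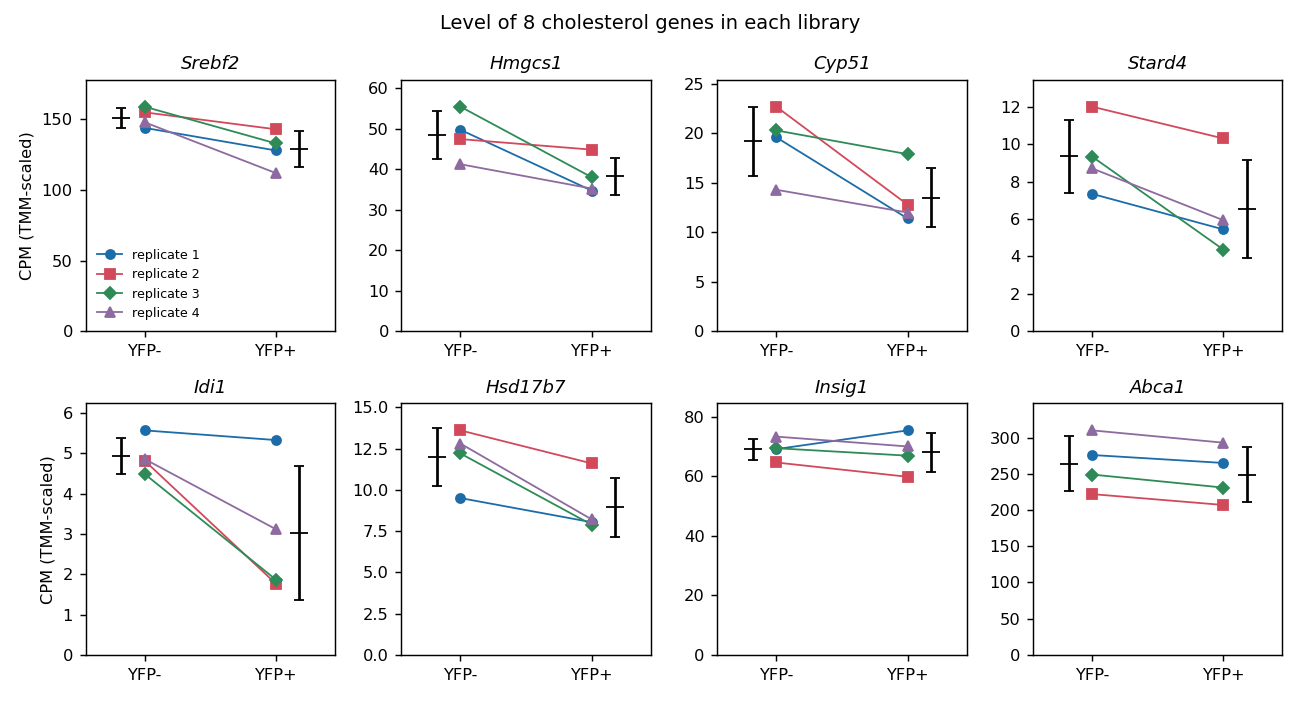
CPM of 8 cholesterol genes in each library, with lines joining libraries of the same replicate number and black bars for the mean and SD of 4 libraries. All 4 lines slope down for Srebf2, Hmgcs1, Cyp51, Stard4, Idi1, Hsd17b7 and Abca1, and 3 of 4 for Insig1.

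By pair, 17, 15, 14 and 17 of the 25 genes were lower in YFP+ in pairs 1 to 4, where 50% to 50.8% of all tested genes were. The median log2 ratio of the 25 genes was -0.06, -0.11, -0.04 and -0.20 in these pairs. Lower levels in all 4 pairs were found for 7 genes, beside 16.2% of all tested genes, and higher levels in all 4 pairs for 2, Lss and Abcg1, beside 14%. In the authors' deposited table, 3 of the 26 genes were lower at an adjusted p under 0.05 and 0 were higher. Those were Srebf2 (0.0134), Hmgcs1 (0.0236) and Cyp51 (0.0303), while Stard4 had 0.0946 in the authors' deposited table. The authors' calls rest on the same counts, and the share of all genes called there was not computed here.

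Markers of other cells also differed between the fractions. Enteric glia support the neurons of the gut wall, and their genes fell in YFP+ in 9 of 10 cases, and their summed level was 133 to 209 CPM in YFP- and 9.12 to 12 CPM in YFP+. The most abundant of them, Cdh19, averaged 46.8 ± 10.6 CPM across YFP- libraries against 1.71 ± 0.457 CPM across YFP+ libraries (SD, n = 4 per fraction). Epithelial genes fell in 6 of 11 tested cases, with sums of 42.9 to 85.1 and 20.2 to 28.7 CPM, although Lgals4, the most abundant of them, did not pass (-0.20). Endothelial genes fell in 3 of 5 (sums of 55.5 to 87.3 and 36.1 to 48.9 CPM, Tek -0.76). Tek made up most of these sums, at 37.3 to 61 CPM in YFP- and 21.8 to 33 CPM in YFP+. The endothelial genes Cdh5 and Kdr did not pass (edgeR adjusted p = 0.662 and 0.740). Smooth muscle genes rose in 4 of 5 (166 to 431 and 316 to 800 CPM, Myh11 0.86). Blood cell genes passed in 0 of 4 tested by edgeR, with 0 at an unadjusted p under 0.05. Jchain, the most abundant, had an estimate of -0.25 (SE 0.39), and Itgam had no count in any library. Mural genes rose in 1 and fell in 1 of 4 (Rgs5 0.09). Of 2 genes of interstitial cells of Cajal 0 passed (Ano1 -0.50). Mesothelial genes fell in 1 of 2 tested (Krt19 -3.16). Upk3b did not pass (-0.50, edgeR adjusted p = 0.776), and Msln was not tested, with at most 1 count per library. Whether the fall of Krt19 reflects mesothelial cells was not tested. Stromal markers were abundant in both fractions, with Col3a1 at 18800 and 16000 CPM and Pdgfra at 1050 and 1040 CPM in YFP- and YFP+, while Thy1 had means of 0.918 and 0.469 CPM, with 2.34 CPM in YFP- replicate 1. Of the 8 stromal markers 5 fell, Col1a1 (-0.24), Col1a2 (-0.24), Col3a1 (-0.23), Dcn (-0.32) and Lum (-0.43), and Pdgfrb rose (0.29), while without the block 2 of the 8 fell, Dcn and Lum, and 0 rose. Without the block, edgeR called 0 of the 5 smooth muscle genes higher, and 1 of the 5 endothelial, 4 of the 11 epithelial and 9 of the 10 glial genes lower. The mitochondrial share of counts was 5.2% to 7.38% in YFP- and 4.13% to 4.86% in YFP+. Ltbr, after which the reporter is named, did not pass (log2 fold change 0.12, edgeR adjusted p = 0.396). The part of these differences in the changes of the cholesterol genes was not tested.

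Related lipid genes were read from 5 lists that share no gene with the 26 and were chosen with earlier results of these data known. Of 13 genes of fatty acid synthesis, the route that SREBP-1 is best known for controlling, 9 fell and 0 rose in YFP+, beside 7.85% and 3.65% of all genes. The median log2 fold change of these genes was -0.27 and 12 of 13 estimates were below 0. At an unadjusted p under 0.05, 10 were lower and 0 higher, beside 2172 and 1562 of the 16354 tested genes. DESeq2 called 9 lower and limma-voom 10, both with the block and with 0 higher. Without the block edgeR called 2 lower. The count was 4 without the libraries of replicate 3 and 5 without those of replicate 1. The glial, epithelial and endothelial sums above were lower in the same libraries, and their part was not tested.

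Scd1, a stearoyl-CoA desaturase, changed most in this list. It had 26.3, 24.7, 21.2 and 20.5 CPM in YFP- and 14.1, 12.7, 10 and 13.2 CPM in YFP+. The groups lay well apart (log2 fold change -0.89, SE 0.12, edgeR adjusted p = 5.44e-06), and the call held without the block (edgeR adjusted p = 0.000996). Fads2, a desaturase of polyunsaturated fatty acids, had 34.9 to 50.6 CPM in YFP- and 27.0 to 33.5 CPM in YFP+ (log2 fold change -0.48, edgeR adjusted p = 0.000521, or 0.0306 without the block). Scd2, the more abundant desaturase of stroma, had 128 to 178 and 106 to 137 CPM, with overlapping groups and all 4 pairs lower (log2 fold change -0.31, edgeR adjusted p = 0.00043, or 0.134 without the block). The other genes that fell were the elongases Elovl6 (-0.51) and Elovl5 (-0.27), Me1 (-0.55), the acyltransferase Gpam (-0.39), Acly (-0.22), which makes cytosolic acetyl-CoA for both routes, and Fasn (-0.20), the fatty acid synthase. These 6 were named after their values were seen, and all lost the call without the block (edgeR adjusted p = 0.0756 to 0.253). Without the libraries of replicate 3 the call was lost for Acly, Elovl5, Elovl6, Fasn and Gpam (edgeR adjusted p = 0.0528 to 0.120), and without those of replicate 4 for Acly, Fasn, Gpam and Me1 (edgeR adjusted p = 0.0736 to 0.135). Without those of replicate 1 it was lost for Acly, Elovl5, Fasn and Me1 (edgeR adjusted p = 0.0539 to 0.165), and without those of replicate 2 for Elovl5 (edgeR adjusted p = 0.168). Scd1, Scd2 and Fads2 kept the call in all 4 of these fits. The enzyme Acss2, which makes acetyl-CoA from acetate, had -0.04 and Mid1ip1 0.10.

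**Figure D4:**
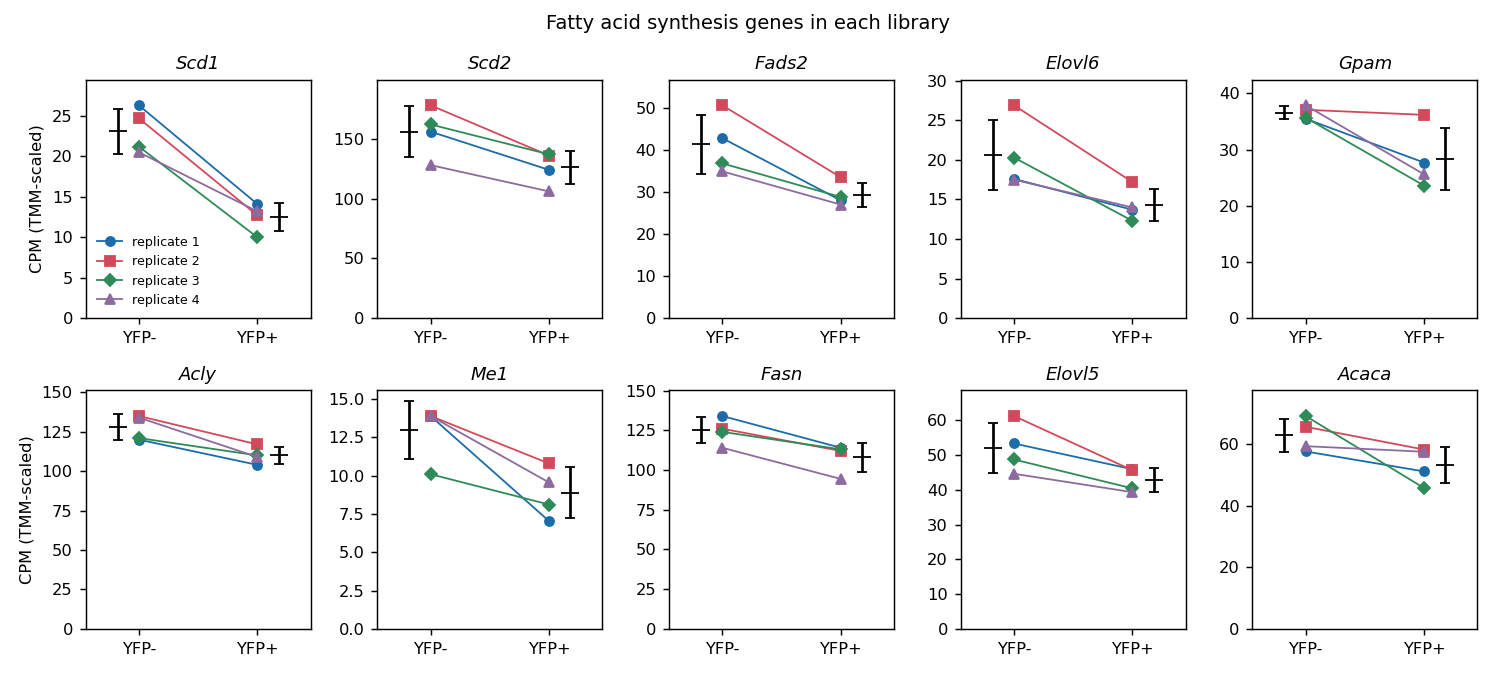
CPM of 10 fatty acid synthesis genes in each library, with lines joining libraries of the same replicate number and black bars for the mean and SD of 4 libraries. The 9 genes that passed are shown with Acaca, which did not, and all 4 lines slope down in each of these 10 genes.

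The 4 other lists are read beside the same shares of all genes, 7.85% lower and 3.65% higher. Of 15 tested genes of further isoprenoid and sterol synthesis and SREBP processing, 1 rose and 0 fell. DESeq2 and limma-voom with the block also called 0 lower. At an unadjusted edgeR p under 0.05, 3 were higher and 0 lower, beside 1562 and 2172 of the 16354 tested genes. Estimates were above 0 for 11 of the 15, beside 8355 of the 16354. The gene that rose was Ggps1, which makes the isoprenoid used to modify small GTPases. It was at 31.5 to 43.4 CPM in YFP- and 40.8 to 53.6 CPM in YFP+ (log2 fold change 0.29, edgeR adjusted p = 0.0227). Of 19 genes of sterol storage and intracellular transport 2 rose, Lipe (0.35), a lipase that also cleaves cholesteryl esters, and Osbpl5 (0.20), an oxysterol-binding protein relative. In the same list Nceh1, another cholesteryl ester hydrolase, fell (-0.89), with YFP- replicate 1 at 9.55 CPM, the other YFP- libraries at 4.97 to 5.11 and YFP+ at 2.82 to 4.15. The calls of Ggps1, Lipe, Osbpl5 and Nceh1 were lost without the block (edgeR adjusted p = 0.216, 0.0546, 0.278 and 0.0659) and without the libraries of replicate 1 (edgeR adjusted p = 0.102, 0.0909, 0.0584 and 0.246). Lipe, Osbpl5 and Nceh1 also lost it without those of replicate 3 (edgeR adjusted p = 0.0714, 0.169 and 0.0772), and Ggps1, Osbpl5 and Nceh1 without those of replicate 4 (edgeR adjusted p = 0.130, 0.152 and 0.0590).

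Of 11 lipoprotein receptors and their regulators, 1 fell and 1 rose. Vldlr, a receptor for triglyceride-rich lipoproteins, had 53.7, 59.5, 62.2 and 84.5 CPM in YFP- and 31.5, 38.6, 34.7 and 43.9 CPM in YFP+. The groups did not overlap, and the change of -0.80 in log2 (SE 0.08, edgeR adjusted p = 6.11e-08) passed without the block too (edgeR adjusted p = 0.00344). Snx17, a sorting nexin that recycles receptors of this family, rose (0.40, edgeR adjusted p = 0.0108, or 0.0503 without the block and 0.0898 without the libraries of replicate 4). Of 11 tested genes of liver X receptors and oxysterols, Cyp27a1, which oxidises the side chain of cholesterol, was the 1 that fell, from 41.8 to 52.2 CPM in YFP- to 30.4 to 38.9 CPM in YFP+ (log2 fold change -0.43, edgeR adjusted p = 0.00122, or 0.0279 without the block). None of this list rose by edgeR, and DESeq2 and limma-voom with the block called 0 higher. At an unadjusted p under 0.05, 3 were higher, beside 1562 of the 16354 tested genes.

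**Figure D5:**
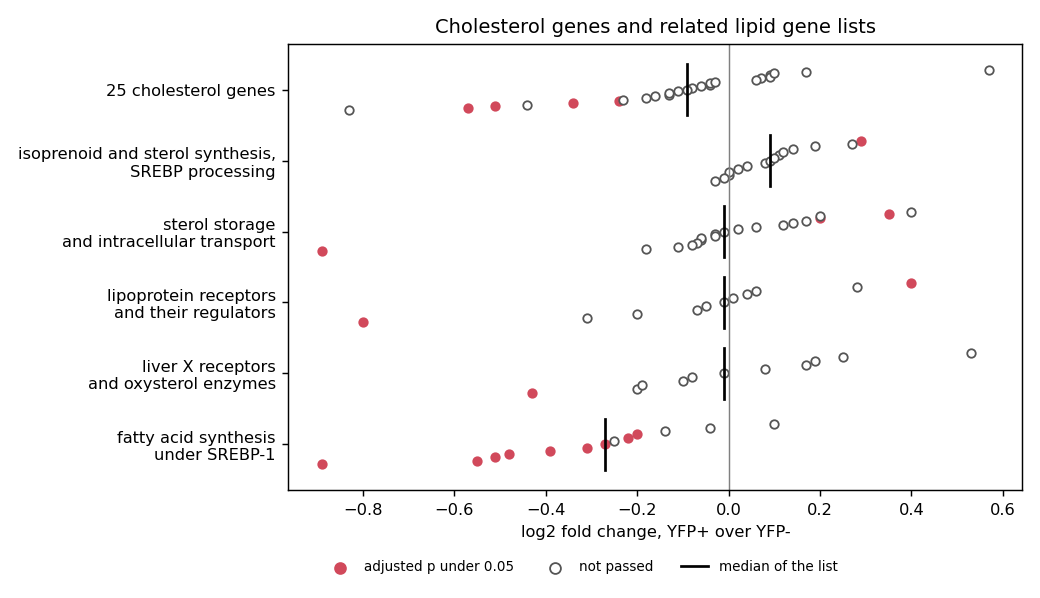
Log2 fold change of YFP+ over YFP- for the 25 cholesterol genes and 5 related lists, with each point a gene, red where the adjusted p was under 0.05, and a black line at each median. The fatty acid list has its median at -0.27, and the 4 other related lists have theirs between -0.01 and 0.09.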

How the data were processed

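A strand-keeping kit for small amounts of total RNA was used, per the labels' protocols. The tools listed are featureCounts 2.0.1, STAR 2.7.3a, cutadapt 3.4 and DESeq2, with the build GRCm38 (mm10), per the submitters' processing notes. The strand setting is not given in the sources used here, and 7 of the 26 genes overlap exons of a gene on the opposite strand and 3 on the same strand. For every gene the deposited table gives the count in each library as the authors obtained it. It also gives the authors' log2 fold change and adjusted p-value. Its 8 normalised columns were not used.

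Counts were fitted in R 4.3.3 with edgeR 4.0.16 (filterByExpr, TMM, robust quasi-likelihood test, replicate number and group as terms). The SE is the absolute log2 fold change divided by the square root of F. Per-pair log2 ratios used a pseudocount of 0.5 counts. The block was set because the rule that chose these genes takes equal replicate numbers as pairs. The authors' deposited fold changes were also known from earlier work to have used the number. Pairing was checked across the 5258 genes whose mean log2 CPM exceeded 5. Deviations from group means correlated at 0.60, 0.64, 0.38 and 0.57 between libraries of equal number and from -0.42 to 0.05 otherwise. Each group was centred on its own mean, so positive values for equal numbers push the others down. The contrast is thus partly built in. No label says what a number shares, or that libraries come from separate animals, so p-values reflect only how these samples vary, which could be technical variation. All 28 pairs of libraries differed by more than sampling noise.

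The genes and lists were chosen with earlier results of these data known. All 26 genes are named, with up to 3 called genes per direction by p from each related list the most abundant gene of each marker list reported, called stromal markers and Ltbr. Other names were chosen after their values were seen. Some genes and 1 marker list are not reported here. Gene models are GENCODE mouse release 21, which held 53706 of the 53801 identifiers. Alternatives were RLE and upper-quartile scaling, 2 filters, DESeq2 1.42.0, limma-voom (limma 3.58.1), no block, removal of both libraries of each number, and removal of mitochondrial and ribosomal RNA genes. A DESeq2 fit without the block and the 8-letter motif were chosen after seeing the data. On simulated counts the edgeR fit with the block recovered only part of the planted changes, and the share of false calls was above the nominal threshold.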

Additional observations from a re-analysis of the deposited data

Results flagged for a closer look

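Among 52 sets of 4 values (26 genes in 2 fractions), 3 held a library that stood apart from the other 3 of its group, and chance alone flags about 1 set in 20, here 2.6 sets. For Mvk the high value was YFP+ replicate 3 (12.9 CPM). For Hsd17b7 it was YFP+ replicate 2 (11.6 CPM). For Ebp the low value was YFP- replicate 2 (6.66 CPM). None of these 3 genes passed between the fractions by edgeR with the block. At an unadjusted p under 0.05, 1 of the 3, Hsd17b7, was lower, and DESeq2 and limma-voom with the block did not call them.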

How the results depend on the processing

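Without the replicate block, edgeR called 0 of the 25 cholesterol genes lower, 547 of all genes lower and 150 higher, 2 fatty acid genes lower, 0 sterol synthesis genes higher, 0 storage and transport genes higher and 0 lower, 0 lipoprotein receptor genes higher and 1 marker gene of other cells higher. DESeq2 without the block, added after seeing the data, called 0 cholesterol genes lower, 805 of all genes lower and 289 higher, 3 fatty acid genes lower, 0 sterol synthesis genes higher, 1 storage gene higher and 2 marker genes higher. With no filter on low counts 2 lipoprotein receptor genes were higher. Removing both libraries of a number, in turn, gave 1 to 2 cholesterol genes lower, 851 to 1126 of all genes lower and 331 to 500 higher, and 4 to 8 fatty acid genes lower. It gave 0 to 1 sterol synthesis genes higher, 0 to 2 storage genes higher and 0 to 1 lower, 1 to 2 lipoprotein receptor genes lower, 0 to 1 oxysterol genes higher, 15 to 21 marker genes lower, and a median of -0.10 to -0.03 for the cholesterol genes. Removal leaves 6 libraries. The cause of the other shifts was not tested. RLE and upper-quartile scaling, both filters, DESeq2 and limma-voom with the block and removal of mitochondrial and ribosomal RNA genes gave 3 to 5 cholesterol genes lower and 0 higher, with no change of sign in any of the 25. Scaling moved the median of all genes by at most 0.01 on the log2 scale. Depth limits the genes under 5 CPM, such as Mvd and Abcg1, whose SEs were 0.31 and 0.30.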
